A study of Artemia parthenogenetic lineage with 3 samples.

Results

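The upstream flank of a gene was taken here as the DNA from 1 to 3000 bp before the start of its gene model. Of the 108316 merged peaks of accessible chromatin, 2883 (2.66%) lay in this flank without touching the start, by the distance that the deposited table gives between each peak and its nearest gene. They belonged to 2417 of the 12002 genes to which a peak was assigned. For each flank peak it was also recorded whether the same gene had a peak over its start. This was so for 680 flank peaks (23.6%) in 585 genes, whereas 2203 flank peaks (76.4%) lay before 1832 genes without such a peak. ATAC-seq, in which the Tn5 transposase inserts sequencing adapters into accessible DNA, was carried out on whole cysts of wild-type parthenogenetic *Artemia*. Cysts were taken 30 min after embryonic diapause termination (EDT), which had been brought about by dehydration and cold storage. According to the study, the dry cysts were rehydrated in ice-cold artificial seawater. They were then reactivated in warmer artificial seawater under constant light and collected. The only group, ArR_30min, held 3 biological replicates of 1 batch of cysts. A whole cyst contains all cells of the arrested embryo, and fewer cells with an open site and a less open site in each cell cannot be told apart. No other time point was analysed here, and so all comparisons are between kinds of peaks within the same libraries.

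Transcription of animal genes starts at promoters, where nucleosomes are moved aside so that RNA polymerase II and general transcription factors can bind. The DNA just upstream often holds binding sites for sequence-specific transcription factors, and such proximal elements can be open together with the start or apart from it. In *Artemia*, diapause arrests the embryo at the gastrula stage inside a shell with very low metabolism, and its genes become active again once diapause ends.

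The libraries of replicates 1, 2 and 3 held 53022269, 56882821 and 82440231 reads, and replicate 3 thus had the least counting error. A median flank peak held 39, 39 and 61 reads. Signal is given as RPM, the reads of a peak scaled to the size of its library, and a difference as log2(RPM + 0.0684), with a pseudocount set at 0.1 of the median peak. Reads were aligned to the assembly ASM3288406v1 of a related species, *Artemia franciscana*, and peak positions are those of its contigs. One library differed from the others at gene starts. The median ratio of replicate 1 to the geometric mean of both other replicates was 1.37 for peaks over a start, and the comparisons with start peaks are therefore also given without replicate 1. The study mentions peaks merged over all of its samples, but whether the deposited list is that set is not stated. It may therefore hold peaks of other time points, so numbers of peaks describe the list and RPM values describe the ArR_30min group.

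Flank peaks were most densely listed next to the gene start and became sparser with distance. Per 100 bp of distance, 155 flank peaks lay at 1 to 100 bp, 129 at 101 to 200 bp, 110 at 501 to 1000 bp and 74.2 at 2501 to 3000 bp. Just beyond the flank, at 3001 to 5000 bp, the density was 78.4 peaks per 100 bp, and from 3 to 20 kb it averaged 68.4. On the other side of the start, peaks were listed more densely close by, with 211 peaks at 1 to 100 bp past the start. The median flank peak lay 1267 bp before its gene (quartiles 580 and 2070.5 bp).

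The dense stretch next to the start belonged to genes without a start peak. At 1 to 100 bp, 152 of the 155 flank peaks were before such genes and 3 were before genes with a start peak. At 101 to 200 bp the numbers were 17 for genes with a start peak and 112 for genes without. Before genes with a start peak the density was highest at 501 to 1000 bp, with 42.8 flank peaks per 100 bp, and was 12.2 at 2501 to 3000 bp. Before genes without one it stayed between 62.0 and 73.4 peaks per 100 bp from 201 to 3000 bp. These densities are totals over unequal numbers of listed genes, 3126 with a start peak and 8876 without, and are not per gene. The median distance was 956.5 bp for genes with a start peak and 1387 bp for genes without. A start peak itself takes up DNA next to the start, with a median width of 574 bp in the 585 genes that had both kinds, and its part in the small number of close flank peaks was not tested.

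**Figure D1:**
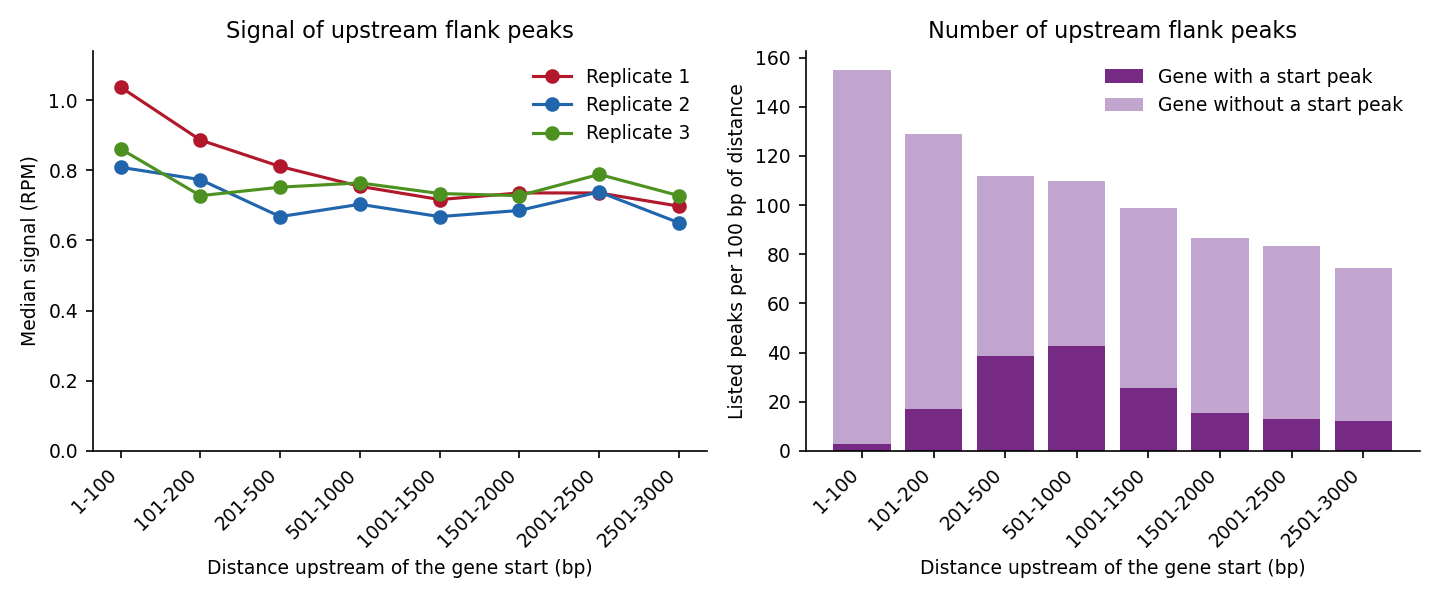
Left, median signal (RPM) of upstream flank peaks in each replicate by distance from the gene start (bp). Right, number of listed flank peaks per 100 bp of distance, stacked by whether the gene also had a start peak; 155 peaks lay at 1 to 100 bp, of which 3 were before genes with a start peak, and replicate 1 is the highest of the 3 replicates at 1 to 500 bp.

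Taken over all distances, a flank peak did not go along with a start peak more often than in the list as a whole. Of the genes with a flank peak, 24.2% had a start peak, while 26.05% of all listed genes had one. Seen from the other side, 18.7% of the 3126 genes with a start peak had a flank peak, against 20.6% of the 8876 genes without. The share of flank peaks whose gene had a start peak varied with distance, however. It was 1.94% at 1 to 100 bp, 34.6% at 201 to 500 bp, 39.0% at 501 to 1000 bp and 16.4% at 2501 to 3000 bp. Past the start this share was 38.0% at 201 to 500 bp and 31.9% at 501 to 1000 bp. In only 3 cases was the start of a flank-peak gene covered by a peak assigned to another gene. Most genes with a flank peak had a single one (2011 genes, 83.2%), and 351 genes had 2, 50 genes had 3 and 5 genes had 4. For 58 genes the flank peak was the only peak in the list. The flank peaks lay on 1164 contigs, and 1468 belonged to genes on the plus strand and 1415 to genes on the minus strand.

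The typical flank peak was a narrow and weak site, and so was the typical peak of the whole list. For all peaks the median width was 317 bp. The median width of flank peaks was 315 bp (quartiles 234 and 459 bp), where 200 bp is the smallest and 2259 bp the largest width. Over the mean of the replicates, the middle 50% of all peaks lay between 0.479 and 1.14 RPM. For flank peaks these limits were 0.515 and 1.19 RPM, the strongest reached 74.9 RPM and the weakest 0.169 RPM. Together they held 178881, 171623 and 266876 reads in replicates 1, 2 and 3, which is 2.74% ± 0.032 (SD, n = 3) of all reads in peaks, close to their 2.66% share of the peaks. A flank peak of at least 2 RPM was found in 294 cases (10.2%), close to the 10.3% among all peaks. More than 1 summit was listed in 45.1% of all peaks and in 43.2% of flank peaks. Flank peaks with several summits, which were wider, had a median of 1.23 ± 0.085 RPM, while those with 1 summit had 0.548 ± 0.021 RPM (SD, n = 3).

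Flank peaks were weaker than peaks over the gene start in every replicate. Their median signal was 0.754, 0.703 and 0.752 RPM in replicates 1, 2 and 3 (0.737 ± 0.029, SD, n = 3), against 2.24, 1.58 and 1.73 RPM for the 3126 start peaks (1.85 ± 0.347). The lowest start value was above the highest flank value. On the log2 scale the difference was -1.49, -1.10 and -1.14. Its mean was -1.24 ± 0.22 (SD, n = 3), which corresponds to a 2.36-fold higher signal at starts. A two-sided exact permutation test, in which the signs of the 3 replicate values were flipped, gave p = 0.25. This is the smallest p possible here, and it was 0.438 after Benjamini-Hochberg adjustment over the 7 comparisons made. Start peaks had a median width of 639 bp. The rule bears on this width, since a wide peak near a start can reach it and then counts as a start peak. Per kb of width the medians were 2.31 ± 0.117 RPM per kb for flank and 2.96 ± 0.553 RPM per kb for start peaks (SD, n = 3). The log2 difference was then -0.32 ± 0.19, and within classes of similar width it was -0.36 ± 0.21. Without replicate 1 these differences were smaller, with -1.12 in RPM, -0.21 per kb and -0.25 within width classes.

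By contrast, flank peaks hardly differed in signal from the other peaks around the gene. The 3002 peaks at 1 to 3000 bp past the start had a median of 0.773, 0.721 and 0.764 RPM, slightly above the flank value in each replicate. The log2 difference, flank minus past, was -0.03 ± 0.0066 (SD, n = 3; exact permutation p = 0.25, adjusted 0.438), and it turned to 0.02 when only the stronger peaks, at or above the median of all peaks, or only peaks within 1 kb of the start were compared. The 11624 peaks from 3 to 20 kb upstream had a median of 0.736, 0.703 and 0.752 RPM, equal to the flank value in replicates 2 and 3. The mean difference to these was 0.01 ± 0.02 (SD, n = 3; exact permutation p = 1, adjusted 1), smaller than the spread between replicates. It became -0.05 among peaks at or above the median of all peaks, 0.05 per kb, 0.04 within width classes and 0.07 for flank peaks within 1 kb, each with 1 sign in all replicates. Widths were alike, with medians of 315 bp in the flank, 313 bp past the start and 326 bp at 3 to 20 kb.

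No step was seen at the 3000 bp limit. The 191 flank peaks just inside it, at 2751 to 3000 bp, had a median of 0.733 ± 0.026 RPM, and the 199 peaks just outside it, at 3001 to 3250 bp, had 0.742 ± 0.040 RPM (SD, n = 3). The last peak inside, 3000 bp before evm.TU.ctg3096.4, had 0.792, 0.861 and 1.13 RPM, and the first outside, 3001 bp before evm.TU.ctg715.18, had 0.189, 0.229 and 0.388 RPM.

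**Figure D2:**
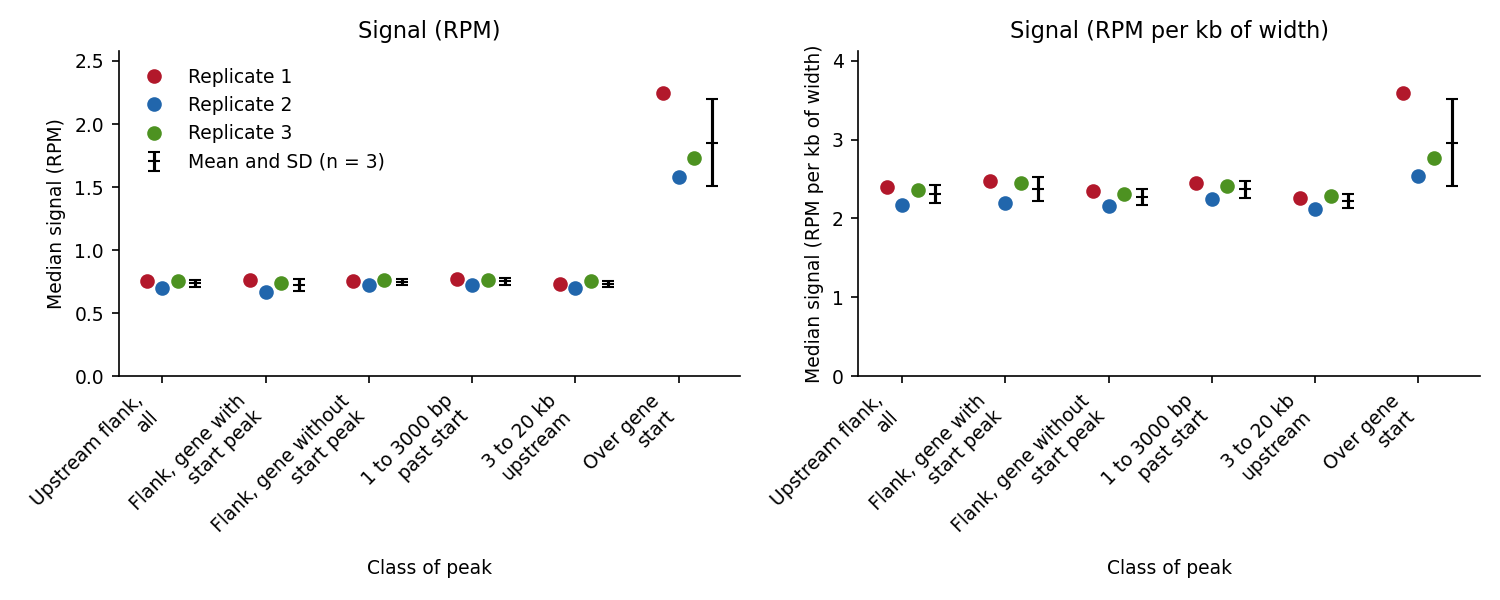
Median signal of each kind of peak in RPM (left) and in RPM per kb of peak width (right), with a point for each replicate and a bar for the mean and SD (n = 3). All kinds of flank peak, peaks past the start and peaks from 3 to 20 kb upstream lie close together near 0.7 RPM, while peaks over the gene start lie at 1.58 to 2.24 RPM and come closer to the others per kb.

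Flank peaks of genes with and without a start peak had similar medians. Flank peaks before genes with a start peak had a median of 0.764, 0.668 and 0.740 RPM, against 0.754, 0.721 and 0.764 RPM before genes without. They were higher in replicate 1 only. The mean log2 difference was -0.04 ± 0.06 (SD, n = 3; exact permutation p = 0.5, adjusted 0.583), within the spread between replicates, and per kb of width its sign turned, to 0.06. The strong end of the distribution differed more. At least 2 RPM was reached by 47 flank peaks (6.91%) of genes with a start peak and 247 (11.2%) of genes without. Among all peaks this share was 10.3%. At least 10 RPM was reached by 0 of 680 and 11 of 2203 flank peaks. Such peaks are rare in the whole list too, with 0.373% of all peaks. Among peaks at or above the median of all peaks the log2 difference was -0.21, and within 1 kb of the start it was -0.12 ± 0.037 (SD, n = 3), lower for genes with a start peak in all 3 replicates. Median widths were 295.5 bp with and 321 bp without a start peak.

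Signal increased with the width of a flank peak, and its contrast with start peaks changed along this range. Flank peaks under 300 bp wide, 45.8% of them, had a median of 0.522 ± 0.027 RPM, against 0.698 ± 0.119 RPM for start peaks of that width (SD, n = 3). From 600 to under 1000 bp the medians were 1.90 ± 0.161 RPM in the flank and 2.30 ± 0.447 RPM at starts. The 79 flank peaks of at least 1000 bp reached 4.10 ± 0.093 RPM, and here start peaks had 3.63 ± 0.671 RPM and peaks at 3 to 20 kb had 3.31 ± 0.348 RPM. This order among the widest peaks held in replicates 2 and 3, whereas in replicate 1 start peaks were higher, with 4.19 RPM for flank and 4.38 RPM for start peaks. Across the 2883 flank peaks, Spearman's correlation of width with mean signal was 0.759 and that of distance with mean signal was -0.05. These points come from the same 3 libraries, and width and read number also share the peak call.

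A gradient of signal with distance appeared mainly in replicate 1. Flank peaks at 1 to 500 bp (619 peaks) had a median of 0.868, 0.738 and 0.776 RPM, against 0.717, 0.703 and 0.764 RPM for those at 2001 to 3000 bp (788 peaks). The log2 difference was 0.25, 0.06 and 0.02, on average 0.11 ± 0.12 (SD, n = 3; exact permutation p = 0.25, adjusted 0.438), which is within the spread between replicates. Without replicate 1 it was 0.04, and among peaks at or above the median of all peaks it turned to -0.09. For genes without a start peak it was 0.18 ± 0.12. The 152 flank peaks at 1 to 100 bp before such genes had medians of 1.03, 0.809 and 0.861 RPM.

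The excess in replicate 1 reached from the start into the nearest flank. Over all flank peaks the ratio of replicate 1 to the other replicates had a median of 1.05, and 55.9% of flank peaks were higher in replicate 1, against 1.37 and 91.2% for start peaks. It was 1.22 at 1 to 100 bp, 1.17 at 101 to 200 bp and 1.12 at 201 to 500 bp, and then declined to 0.997 at 2501 to 3000 bp. Before genes with a start peak the ratio was 1.22 at 201 to 500 bp, where 79.3% of 116 peaks were higher in replicate 1, and 1.11 at 501 to 1000 bp. Before genes without one it was 1.20 at 1 to 200 bp and already 1.05 at 201 to 500 bp. From 1001 bp on, both kinds lay between 0.995 and 1.04. Past the start the ratio was 1.11 at 1 to 100 bp. The 20 flank peaks at 1 to 200 bp before genes with a start peak had a ratio of 1.03, but they are few. What sets replicate 1 apart was not tested.

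**Figure D3:**
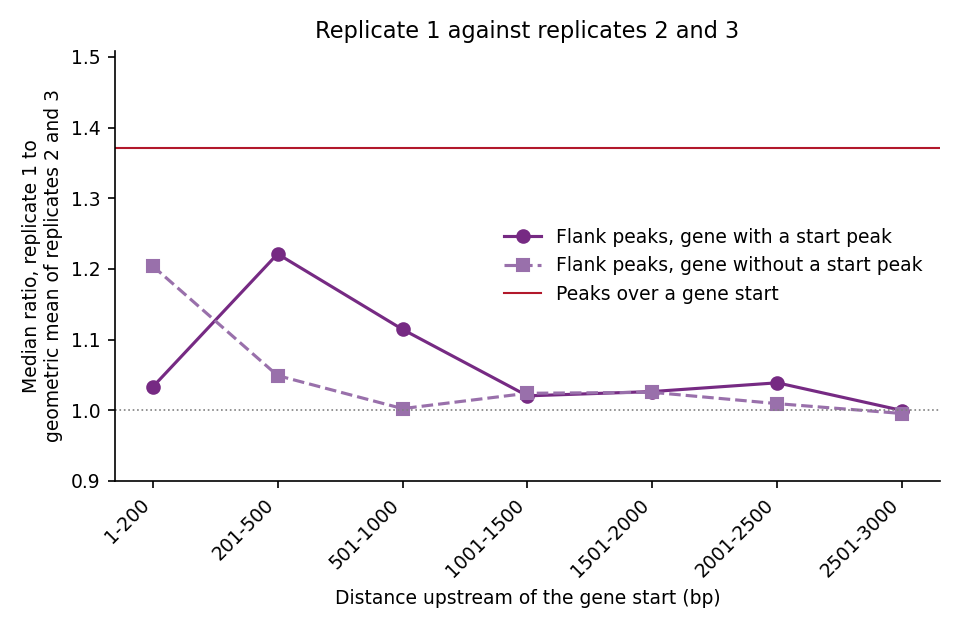
Median ratio of the signal in replicate 1 to the geometric mean of replicates 2 and 3, by distance upstream of the gene start (bp), for flank peaks of genes with (circles) and without (squares) a start peak. The upper line marks start peaks at 1.37 and the dotted line a ratio of 1; flank peaks of genes with a start peak stand at 1.22 at 201 to 500 bp, and both kinds are near 1 from 1001 bp on.

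In the 585 genes with both kinds of peak, the start peak was usually the stronger one. Their strongest flank peak had a median of 0.742 RPM and their start peak 1.72 RPM (means of 3 replicates). The median log2 difference within a gene was -1.30, -1.003 and -0.99 in replicates 1, 2 and 3. Its mean was -1.10 ± 0.18 (SD, n = 3), or a 2.14-fold higher start peak. It went the same way in all replicates (exact permutation p = 0.25, the smallest possible, adjusted 0.438), and without replicate 1 it was -1.0. The start peak was stronger in every replicate in 76.1% of genes, and the flank peak was stronger in every replicate in 51 genes. Median widths, on which the rule bears here too, were 308 bp for the flank peak and 574 bp for the start peak. Per kb of width the difference was -0.32 ± 0.16 (SD, n = 3). In the 114 genes whose peaks fell in the same width class it was -0.47. Without replicate 1 these values were -0.23 and -0.38.

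Flank and start signal of the same gene were only loosely related. Across the 585 genes, which share libraries and depth, Spearman's correlation was 0.242, 0.227 and 0.274 in replicates 1, 2 and 3. The middle 50% of genes had log2 differences between -1.71 and -0.39. A median of 543 bp separated the peaks of a pair (quartiles 215 and 1281 bp), and in 46 genes the gap was under 100 bp. Among all peaks of these genes, the start peak was the strongest in 277 (47.4%) and a flank peak in 35 (5.98%). In genes with a flank peak and no start peak, a flank peak was the strongest in 396 (21.6%).

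**Figure D4:**
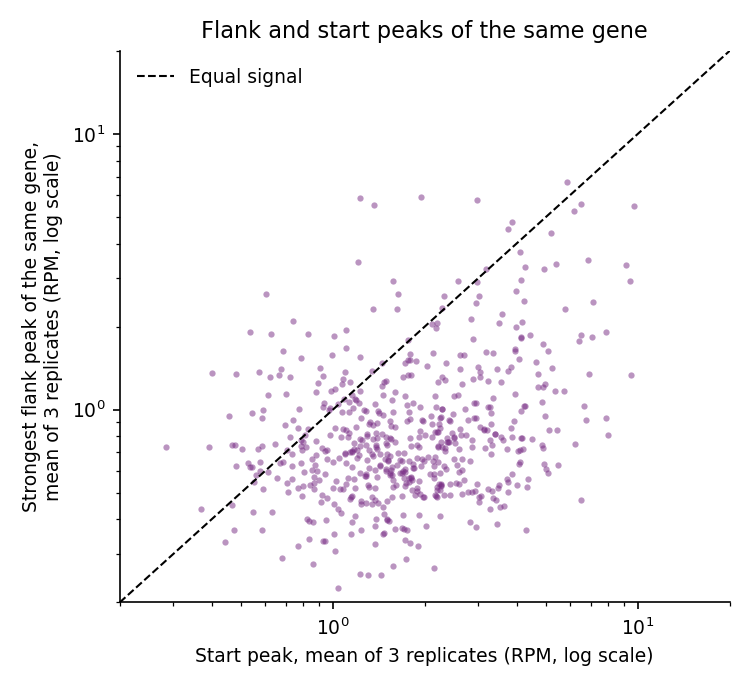
Mean signal of the strongest flank peak (vertical) against that of the start peak (horizontal) in the 585 genes with both, in RPM on log axes, each point being a gene. Points under the dashed line of equal signal are genes whose start peak was stronger; 83 genes lie above it.

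Some genes went against this order. Among the 36 genes whose stronger peak of the pair had at least 5 RPM, the flank peak exceeded the start peak most in evm.TU.ctg396.30, whose annotation by the study names lipid transport and lipid binding. Its flank peak at 1701129 to 1701953 of ctg396, 285 bp before the start, had 6.39, 4.82 and 6.30 RPM, against 1.47, 1.09 and 1.13 RPM for its start peak. The mean log2 difference was 2.19, and the start peak was only 200 bp wide next to a flank peak of 825 bp. Next came evm.TU.ctg4.53, where the flank peak 449 bp upstream had 6.75, 4.57 and 5.29 RPM and the start peak 1.87, 0.844 and 1.4 RPM. In evm.TU.ctg51.19 the flank peak had 7.71, 4.57 and 5.37 RPM and the start peak 2.24, 1.44 and 2.15 RPM. In all of these genes the flank peak was higher in all 3 replicates and was the strongest peak of its gene. The flank peaks of evm.TU.ctg1187.4 and evm.TU.ctg337.9 lay farther away, at 2727 and 2357 bp. They exceeded their start peaks by 0.94 and 0.21 on the log2 scale. The signals were 5.77 ± 0.626 against 2.97 ± 0.316 RPM in evm.TU.ctg1187.4 and 6.70 ± 0.848 against 5.84 ± 1.25 RPM in evm.TU.ctg337.9 (SD, n = 3). The flank peak was also wider than the start peak in evm.TU.ctg4.53 (900 against 237 bp) and evm.TU.ctg51.19 (1001 against 559 bp). The same held in evm.TU.ctg1187.4 (1172 against 737 bp) and evm.TU.ctg337.9 (1253 against 994 bp). These excesses are in RPM and were not corrected for width.

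At the other end stood strong start peaks with a faint site in the flank. The flank peak of evm.TU.ctg1339.2, at 161471 to 161670 of ctg1339, had 0.471, 0.387 and 0.558 RPM, against 8.03, 5.85 and 5.64 RPM over its start. This was a log2 difference of -3.60. In evm.TU.ctg199.5, evm.TU.ctg110.8, evm.TU.ctg336.11 and evm.TU.ctg501.25 the differences were -3.17, -2.99, -2.99 and -2.96. The flank peaks of these 5 genes were 200 to 303 bp wide and their start peaks 609 to 1403 bp wide. The flank peak of evm.TU.ctg110.8 overlapped the body of another listed gene.

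The strongest flank peak stood well above the next. It spanned 563018 to 564971 of ctg496, ended 584 bp before evm.TU.ctg496.7 and had 74.7, 73.0 and 76.9 RPM. It was also the strongest of the 37 peaks of that gene, and a second flank peak of the same gene, at 562432 to 562912 and 2643 bp upstream, ranked among the 10 strongest with 11.1, 11.5 and 11.5 RPM. The peak 1897 bp before evm.TU.ctg2346.1 (19710 to 21293 of ctg2346) had 34.4, 32.0 and 35.1 RPM, although another peak of that gene was stronger. For evm.TU.ctg835.1 the peak at 2268 bp (19572 to 21015 of ctg835) had 28.9, 19.7 and 20.5 RPM, and here replicate 1 was the highest. The deposited table gives none of these genes a name.

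A group of flank peaks between 10 and 17 RPM followed. They belonged to evm.TU.ctg222.13 (16.7, 13.7 and 15.5 RPM, 2407 bp upstream), evm.TU.ctg97.24 (13.7, 13.6 and 14.7 RPM, 175 bp upstream) and evm.TU.ctg3295.1.1 (12.3, 13.8 and 12.8 RPM, 2020 bp upstream). The peak of evm.TU.ctg2087.3, 729 bp upstream, had 10.4, 10.2 and 11.2 RPM. The short gene evm.TU.ctg780.7, of 1266 bp, had a peak of 474 bp with 14.0, 10.8 and 15.7 RPM at 800 bp upstream. This peak overlapped the body of another listed gene. The even shorter evm.TU.ctg947.7, of 462 bp, had as its only peak the widest of all flank peaks, 2259 bp wide, with 10.1, 11.0 and 10.2 RPM. None of these genes had a start peak. The 10 strongest flank peaks held 6.85% ± 0.128 (SD, n = 3) of the reads in flank peaks. They were highest in replicate 1 in 2 cases, in replicate 2 in 3 and in replicate 3 in 5, whereas all flank peaks were highest in replicate 1 in 40.4%, in replicate 2 in 23.2% and in replicate 3 in 36.4%.

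**Figure D5:**
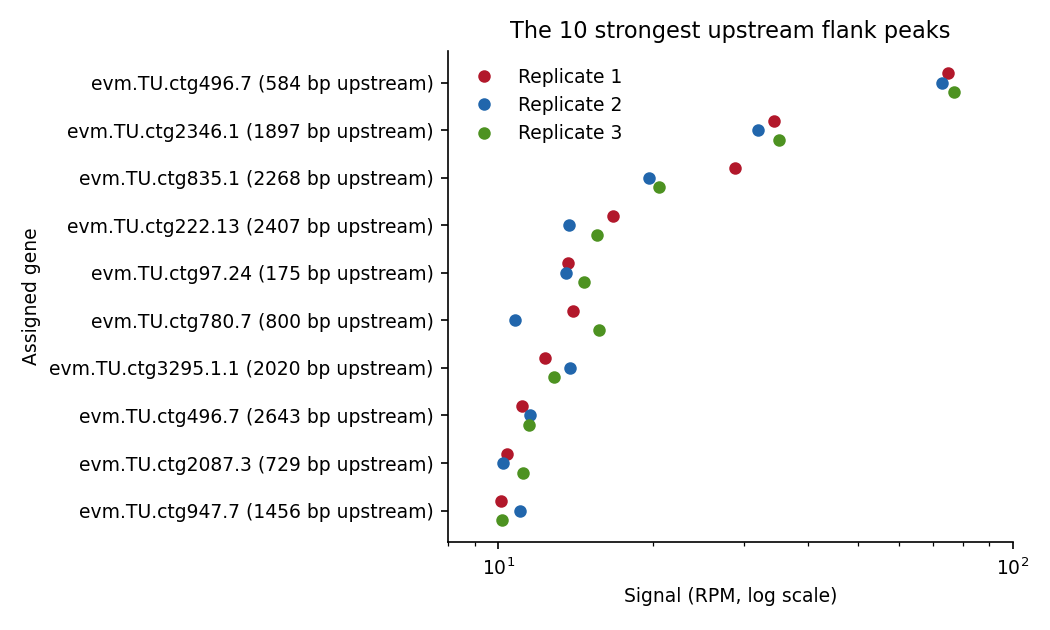
Signal (RPM, log axis) of the 10 strongest upstream flank peaks in each replicate, with the assigned gene and the distance to its start. The peak of evm.TU.ctg496.7 lies at 73.0 to 76.9 RPM, and the replicates are most spread at evm.TU.ctg835.1 (19.7 to 28.9 RPM) and evm.TU.ctg780.7 (10.8 to 15.7 RPM).

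Per kb of width, the leading flank peaks of at least 500 bp were the same first 3, with 38.3 RPM per kb for evm.TU.ctg496.7, 21.4 for evm.TU.ctg2346.1 and 15.9 for evm.TU.ctg835.1. They were followed at 13.3 RPM per kb each by evm.TU.ctg2271.5, with 7.83, 8.98 and 6.61 RPM at 2174 bp upstream, and evm.TU.ctg887.7, with 9.84, 6.43 and 6.88 RPM at 2856 bp. The median flank peak had 2.31 RPM per kb.

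The 5 genes with 4 flank peaks each had no start peak. In evm.TU.ctg2667.1 all 4 were above the median flank peak, with 4.24 ± 0.308 RPM at 98 bp, 2.10 ± 0.468 RPM at 1211 bp, 1.29 ± 0.132 RPM at 1702 bp and 1.86 ± 0.149 RPM at 2034 bp (SD, n = 3). In evm.TU.ctg352.23 the peak farthest away, at 2457 bp, was the strongest of the gene with 3.07 ± 0.416 RPM and the nearest, at 551 bp, had 1.71 ± 0.590 RPM. In evm.TU.ctg2379.2 the peak at 1250 bp had 2.89 ± 0.172 RPM and the others 1.1 to 1.5 RPM. The flank peaks of evm.TU.ctg1775.5 (0.466 to 0.971 RPM) and evm.TU.ctg4198.1 (0.528 to 0.747 RPM) were weak. Some flank peaks had a close neighbour in the list. The median gap to the nearest listed peak was 1546.5 bp, and it was under 200 bp for 456 flank peaks (15.8%). This gap was not measured for other kinds of peaks, so the share cannot be compared.

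Functions were read for a part of these genes only, from an annotation table that may have been shortened. The study gives Gene Ontology terms, a shared vocabulary of gene functions, for genes whose accessibility and expression changed together. Of all listed genes, which are only those with an assigned peak, 20.1% had a flank peak. Terms were read for 460 genes, of which 94 had one. Because the study chose these genes in part on the ArR_30min samples, the terms serve here only to describe roles. The strongest flank peak among them, 2815 bp before evm.TU.ctg66.12, had 10.1, 7.79 and 7.96 RPM, and the terms of this gene include structural constituent of ribosome and clathrin coat. Ribosome constituents make up the machinery of translation, and clathrin coats form transport vesicles.

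A pair of genes annotated with lipid transport, lipid binding and lipoprotein metabolism followed. Proteins with these roles carry lipids such as those of yolk. They were evm.TU.ctg887.7, with 7.72 ± 1.85 RPM at 2856 bp and no start peak, and evm.TU.ctg396.30, with 5.84 ± 0.883 RPM at 285 bp (SD, n = 3). In both, the flank peak was the strongest peak of the gene.

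Several other annotated genes concerned signalling, transport and transcription. The protein kinase gene evm.TU.ctg12.7, whose product would transfer phosphate to proteins, had 5.87, 3.53 and 4.17 RPM at 2886 bp upstream, against 5.17, 2.81 and 3.29 RPM at its start peak. Replicate 1 was the highest at both sites. The GTP-binding gene evm.TU.ctg396.7 had 4.77 ± 0.653 RPM at 2482 bp and no start peak. In evm.TU.ctg290.13, annotated with protein secretion and the nuclear pore, the flank peak 120 bp upstream had 3.89 ± 1.07 RPM. The transcription factor gene evm.TU.ctg37.21, of sequence-specific DNA binding, had 2.33 ± 0.428 RPM only 11 bp before its start, and the DNA-binding gene evm.TU.ctg157.10 had 2.32 ± 0.797 RPM at 65 bp (SD, n = 3). Neither had a start peak, so that the listed open site ended just short of the gene model. The remaining annotated genes were evm.TU.ctg179.25 (protein binding, virion and viral tegument, 3.33 ± 1.19 RPM) and evm.TU.ctg769.9 (metal ion binding, 3.23 ± 0.898 RPM, next to a start peak of 3.17 ± 1.25 RPM).

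Of the 21 genes that the study names as candidate receptors or signalling genes, 2 had a flank peak, while 20.1% of all listed genes had one. The 21 genes were counted whether or not they have a listed peak, so these shares are not directly comparable. Both genes with a flank peak are described here. Both were listed as candidates for G-protein-coupled receptors, which pass signals from outside the cell to G proteins, but neither was retained as a receptor in the structural check of the study. The flank peak of evm.TU.ctg25.48, 1386 bp upstream, had 1.45, 1.51 and 1.47 RPM, against 3.0, 1.92 and 2.11 RPM at its start peak, and the values of both sites did not overlap. The gene evm.TU.ctg308.1 had 0.792, 1.07 and 1.03 RPM at 2510 bp and no start peak. Among all flank peaks they ranked at the percentiles 82.4 and 66.0.

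Few flank peaks lay between genes that face each other. In the list, 349 genes lay head to head with another gene, so that the starts of both faced each other within 3000 bp. Of these genes, 7 (2.01%) had a flank peak, against 20.7% of the other genes, and 32.7% had a start peak, against 25.8% of the others. The DNA between such starts is short and is divided between both genes, and its part in these shares was not tested. The 7 flank peaks had medians of 0.660, 0.703 and 0.704 RPM, against 0.754, 0.703 and 0.752 RPM for the other 2876. The log2 difference of -0.09 ± 0.09 (SD, n = 3; exact permutation p = 0.5, adjusted 0.583) was within the spread and turned to 0.07 per kb of width. It was -0.45 among peaks at or above the median of all peaks, where 3 head-to-head flank peaks remained. The strongest was that of evm.TU.ctg89.3, whose start lies 2435 bp from that of evm.TU.ctg89.4, with 1.19, 1.13 and 0.898 RPM. The neighbours evm.TU.ctg274.37 and evm.TU.ctg274.38, with starts 2741 bp apart, each had a flank peak between them, with 0.689 ± 0.025 and 0.668 ± 0.126 RPM (SD, n = 3). Those of evm.TU.ctg318.3 and evm.TU.ctg2853.2 had 0.744 ± 0.254 and 0.641 ± 0.118 RPM.

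In 126 cases (4.37%) the flank peak overlapped, at least in part, the body of another listed gene. These peaks lay before genes with a median length of 19686 bp. Their median signal was 0.792, 0.756 and 0.867 RPM, against 0.754, 0.703 and 0.752 RPM for flank peaks that overlapped no listed gene. All 3 values were higher, and this difference was not tested.

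Read density in flank peaks was also set against the DNA outside peaks. All listed sites are called peaks, which were selected for many reads, so a high share is built in and only the shares of different kinds of peaks are compared. With the mean read density outside peaks as background, a Poisson test with Benjamini-Hochberg adjustment in each replicate called 2688 flank peaks (93.2%, exact 95% interval 92.3 to 94.1) in all 3 replicates, against a background of 90.2% among all 108316 peaks. The share was 95.6% for flank peaks of genes with a start peak and 92.5% for those without, against 99.4% for start peaks and 91.6% for peaks at 3 to 20 kb. If a read is counted over the peak width plus its own 150 bp, 2223 flank peaks (77.1%) were called, against 71.1% of all peaks. At 2 times the background, 1709 flank peaks (59.3%) were called, against 51.6% of all peaks and 89.6% of start peaks. The count thus depended on how the background was set, while the share of start peaks stayed above that of flank peaks under each setting. At the same read density above background, however, a wider peak is called more easily by this test. Median widths were 315 bp for flank and 639 bp for start peaks, and the part of width in these shares was not tested. The recovered library totals are well above the deduplicated reads that the study lists, so both reads of a pair were probably counted. This would make these p-values too small. Intervals cover counting error only.

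Agreement between replicates was also measured. Across the 2883 flank peaks, Pearson's correlation of log2 values between pairs of replicates was 0.880, 0.890 and 0.908, and the last was that of replicates 2 and 3. Peaks are not independent replicates, and these values describe the libraries. The coefficient of variation between replicates, estimated in edgeR from the common dispersion, was 0.180 for flank peaks and 0.208 for start peaks. Without replicate 1 it was 0.141 for flank and 0.092 for start peaks. The median SD of a single flank peak was 19.7% of its mean, and 8.89% for those of at least 5 RPM, so that the strongest flank peaks had the smaller relative spread.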

How the data were processed

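ATAC-seq was performed in 3 samples of 1 group. According to the study, the authors used BWA for alignment after trimming, discarded duplicate, mitochondrial and poorly mapped reads, called peaks with MACS2 and annotated them with ChIPseeker. The deposited table gives a gene and a distance for each peak. The submitters' processing notes also name BWA and MACS2. The authors deposited raw read counts per merged peak and library. The deposited RPM values equal the count plus 1 over a library total, to within 0.0005%, and so these totals were recovered. Gene starts are those of gene models, in which untranslated regions may be missing. Exons and introns were not separated, and no sequence is shown because no genome was used here. The 72 flank peaks assigned to joined gene identifiers were kept.

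Medians of log2(RPM + 0.0684) were compared within each replicate, with sign-flip permutation tests over the replicates and Benjamini-Hochberg adjustment over 7 comparisons. All flank peaks entered, without a filter, and 2826 had at least 10 reads in every replicate. The background density used the contig span covered by listed features, 1583 Mb. The functions were tested on simulated data. Alternatives were the pseudocount, RPM per kb, width classes, TMM scaling, a signal filter, a 1 kb window, 1 peak per gene, the background and leaving out replicates. Restriction to genes without a start peak, the background over width plus read length and the width corrections without replicate 1 were chosen after seeing the data. Tools were Python 3.11.15, pandas 2.3.3, scipy 1.17.1, R 4.3.3 and edgeR 4.0.16.

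The flank peaks, lists and comparisons were chosen with earlier results of these data known. Genes were named by rule: the 10 flank peaks highest in RPM, the 5 highest per kb of at least 500 bp, the 5 genes with the most flank peaks, the 5 largest excesses and 5 largest deficits against the own start peak at 5 RPM or more, genes named by the study, the 10 strongest with a Gene Ontology term and the 5 strongest head-to-head ones. Peaks at the 3000 bp limit were named for their position.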

Additional observations from a re-analysis of the deposited data

How the results depend on the processing

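Flank peaks stayed below start peaks under all 14 alternatives run, from -1.31 to -0.21 on the log2 scale, and -1.31 to -1.12 when a replicate was left out. Within genes the difference stayed between -1.15 and -0.23 over 11 alternatives, and between -1.15 and -1.0 without a replicate. The small differences changed sign with the setting. In peaks of at least median signal, flank minus past peaks was 0.02. It was also 0.02 in a 1 kb window, and -0.03 whichever replicate was left out. Flank minus near upstream peaks was -0.05 in peaks of at least median signal, 0.05 in RPM per kb, 0.04 within width classes and 0.07 in a 1 kb window, and 0 to 0.02 without a replicate. The contrast between genes with and without a start peak was 0.06 in RPM per kb, 0.05 within width classes and -0.12 in a 1 kb window, and -0.07 to -0.01 without a replicate. Nearest minus farthest flank peaks was -0.09 in peaks of at least median signal, and 0.04 to 0.16 without a replicate. Head-to-head minus other flank peaks was 0.07 in RPM per kb, 0.02 within width classes and -0.45 in peaks of at least median signal, and -0.13 to -0.04 without a replicate. The causes of these reversals were not tested. Flank peaks above background numbered 1709 at 2 times the background (59.3%, against 51.6% of all peaks). Without a replicate they numbered 2705 to 2784 (93.8 to 96.6%, against 90.9 to 94.8% of all peaks). A call was then needed in 2 replicates instead of 3, so this number could not fall. The log2 ratio of replicate 1 was 0.07, and 0.14 in the 287 flank peaks that had 100 reads or more in every replicate. With 3 samples the exact permutation test cannot go below p = 0.25, and depth limits single peaks, since a median flank peak holds 39 reads in the shallower libraries. No paired analysis was possible because the series has 1 group, so no numbered samples of other groups could be matched, and kinds of peaks were compared within each replicate.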
